A study of Mus musculus with 16 samples.

Results

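The genes described here encode enzymes of cholesterol and fatty acid synthesis and the factors that regulate them. They are 30 genes, taken by symbol from a list, out of 30286 distinct symbols in the deposited table, and all 30 were found and had a mean of at least 1 TPM over the groups. Of these, 18 encode sterol enzymes, 5 encode regulators, 2 encode a sterol carrier and a phosphatidate phosphatase, and 5 encode enzymes of fatty acid synthesis. RNA came from facial prominences, the embryonic buds of the face, taken at embryonic day 12 from mice of the C57BL/6 strain. The groups were Esrp1 knockout (KO, Esrp1-/-) ectoderm, wild-type (WT) ectoderm, KO mesenchyme and WT mesenchyme, with the ectoderm, a surface epithelium, separated surgically from the mesenchyme beneath it. Each group had 4 libraries, 16 in all, each from a pool of 6 to 7 embryos, and the KO was carried by whole embryos, so both layers came from mutant tissue. The table gives 1 TPM value per gene and group (a level corrected for transcript length and scaled to the total of its column). There is therefore no replicate error, no test and no p-value for any value below, and "higher" and "lower" describe the deposited values alone.

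Cells build cholesterol from acetyl-CoA through mevalonate, farnesyl diphosphate, squalene and lanosterol, and build fatty acids from the same acetyl-CoA through malonyl-CoA. The genes of both routes are controlled by the sterol regulatory element binding proteins (SREBPs), which Srebf1 and Srebf2 encode. Scap escorts the SREBP precursors out of the endoplasmic reticulum for cleavage, and Insig proteins hold them there when sterols are plentiful. Cholesterol is attached to hedgehog ligands and takes part in signal reception, and inherited defects of the last steps of the pathway are known for malformations that include cleft palate.

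The promoters of Hmgcs1, Srebf2 and Fasn are printed because Hmgcs1 and Srebf2 hold the letters TCACNCCA of a sterol regulatory element, and Fasn had the largest KO difference of the set. Sequences are from RefSeq on GRCm38.p6, on the strand of the gene, and end at or before the first base of the gene in GENCODE M21. Capitals mark TCACNCCA (TCACCCCAC in Hmgcs1, which contains it), CCAAT and GGGCGG on either strand, and in Fasn neighbouring CCAAT matches overlap. The Hmgcs1 window is chr13:119690101-119690350 (plus strand), the Srebf2 window chr15:82147019-82147180 (plus strand) and the Fasn window chr11:120824548-120824797 (minus strand).
Hmgcs1: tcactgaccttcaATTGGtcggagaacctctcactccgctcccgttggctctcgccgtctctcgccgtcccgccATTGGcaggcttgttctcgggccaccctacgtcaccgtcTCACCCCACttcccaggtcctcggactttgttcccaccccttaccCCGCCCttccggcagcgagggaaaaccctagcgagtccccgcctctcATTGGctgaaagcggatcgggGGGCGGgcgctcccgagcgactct
Srebf2: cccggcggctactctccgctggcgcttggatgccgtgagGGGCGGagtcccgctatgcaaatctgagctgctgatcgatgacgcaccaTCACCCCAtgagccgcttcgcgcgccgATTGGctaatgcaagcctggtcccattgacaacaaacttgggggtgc
Fasn: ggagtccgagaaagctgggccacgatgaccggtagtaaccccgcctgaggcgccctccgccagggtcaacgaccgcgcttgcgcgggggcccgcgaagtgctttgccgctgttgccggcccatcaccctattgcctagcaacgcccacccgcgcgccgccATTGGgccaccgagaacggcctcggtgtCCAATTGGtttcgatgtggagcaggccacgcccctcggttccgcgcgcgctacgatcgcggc

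Promoters were at hand for 24 of the 30 members, as 32 windows of 250 bases before a RefSeq start. TCACNCCA was in 3 of these windows (9.38%; Hmgcs1, Msmo1 and Srebf2) and in 3.67% of the 32851 windows of all genes. CCAAT, the letters bound by factor NF-Y, was in 20 member windows (62.5%) and in 33.8% of all. GGGCGG, a GC box, was in 23 member windows (71.9%) and in 32.7% of all. These matches describe the letters only.

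Esrp1, which encodes a splicing regulator of epithelia, was at 62.9 TPM in KO ectoderm and 170 TPM in WT ectoderm, and at 1.0 TPM in KO mesenchyme and 1.01 TPM in WT mesenchyme. The layers matched their labels: 6 surface ectoderm markers summed to 1629 TPM in KO ectoderm and 2142 TPM in WT ectoderm, against 12.6 TPM in KO mesenchyme and 12.7 TPM in WT mesenchyme. The KO ectoderm column also held more of 9 facial mesenchyme markers, which summed to 318 TPM there and 80.2 TPM in WT ectoderm, with all 9 higher; the same markers summed to 1379 TPM in KO mesenchyme and 2243 TPM in WT mesenchyme. The columns added to 955495, 917993, 977371 and 969156 TPM for KO ectoderm, WT ectoderm, KO mesenchyme and WT mesenchyme. TPM keep no record of depth. Markers of endothelium, muscle, neurons, macrophages, red blood cells, and Schwann cell precursors with melanoblasts were also above 0 in every column. The 3 neuronal markers summed to 203 TPM in KO mesenchyme and 134 TPM in WT mesenchyme. The 3 muscle markers summed to 215 and 281 TPM there, and the 4 endothelial markers to 124 and 170 TPM. In KO and WT ectoderm the sums were 21.9 and 5.05 TPM for endothelium and 53.0 and 12.6 TPM for muscle. They were 51.9 and 27.2 TPM for neurons and 14.4 and 7.17 TPM for macrophages. Red blood cell markers summed to 3220 and 3091 TPM in KO and WT ectoderm, and Schwann cell precursor and melanoblast markers to 15.7 and 13.0 TPM. What part such cells had in the results was not tested. Libraries with a pair of index barcodes numbered 2 of 4 in KO ectoderm, 1 of 4 in WT ectoderm, 2 of 4 in KO mesenchyme and 0 of 4 in WT mesenchyme. In tissue RNA of this kind, fewer cells of a type and less RNA per cell cannot be told apart.

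All 30 genes were above 1 TPM in each of the 4 columns. Scd2, a stearoyl-CoA desaturase, was the most abundant at 408 TPM in KO ectoderm, 418 TPM in WT ectoderm, 232 TPM in KO mesenchyme and 372 TPM in WT mesenchyme. Acly, Fdps, Hmgcs1 and Acat2, which feed acetyl units and isoprenoids into the routes, were above 100 TPM in every column. Lpin1, a phosphatidate phosphatase of triglyceride synthesis, was the lowest in every column, between 3.62 and 5.16 TPM. The median member stood at 37.6 TPM in KO ectoderm, 35.7 TPM in WT ectoderm, 37.0 TPM in KO mesenchyme and 43.5 TPM in WT mesenchyme. Summed over the 18 sterol enzymes the levels were 1006, 1015, 1131 and 1195 TPM in that order of groups, and over the 5 fatty acid enzymes 763, 755, 492 and 783 TPM. KO mesenchyme thus had the lowest sum of fatty acid enzymes, while its sterol enzymes summed to more than in either ectoderm.

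**Figure D1:**
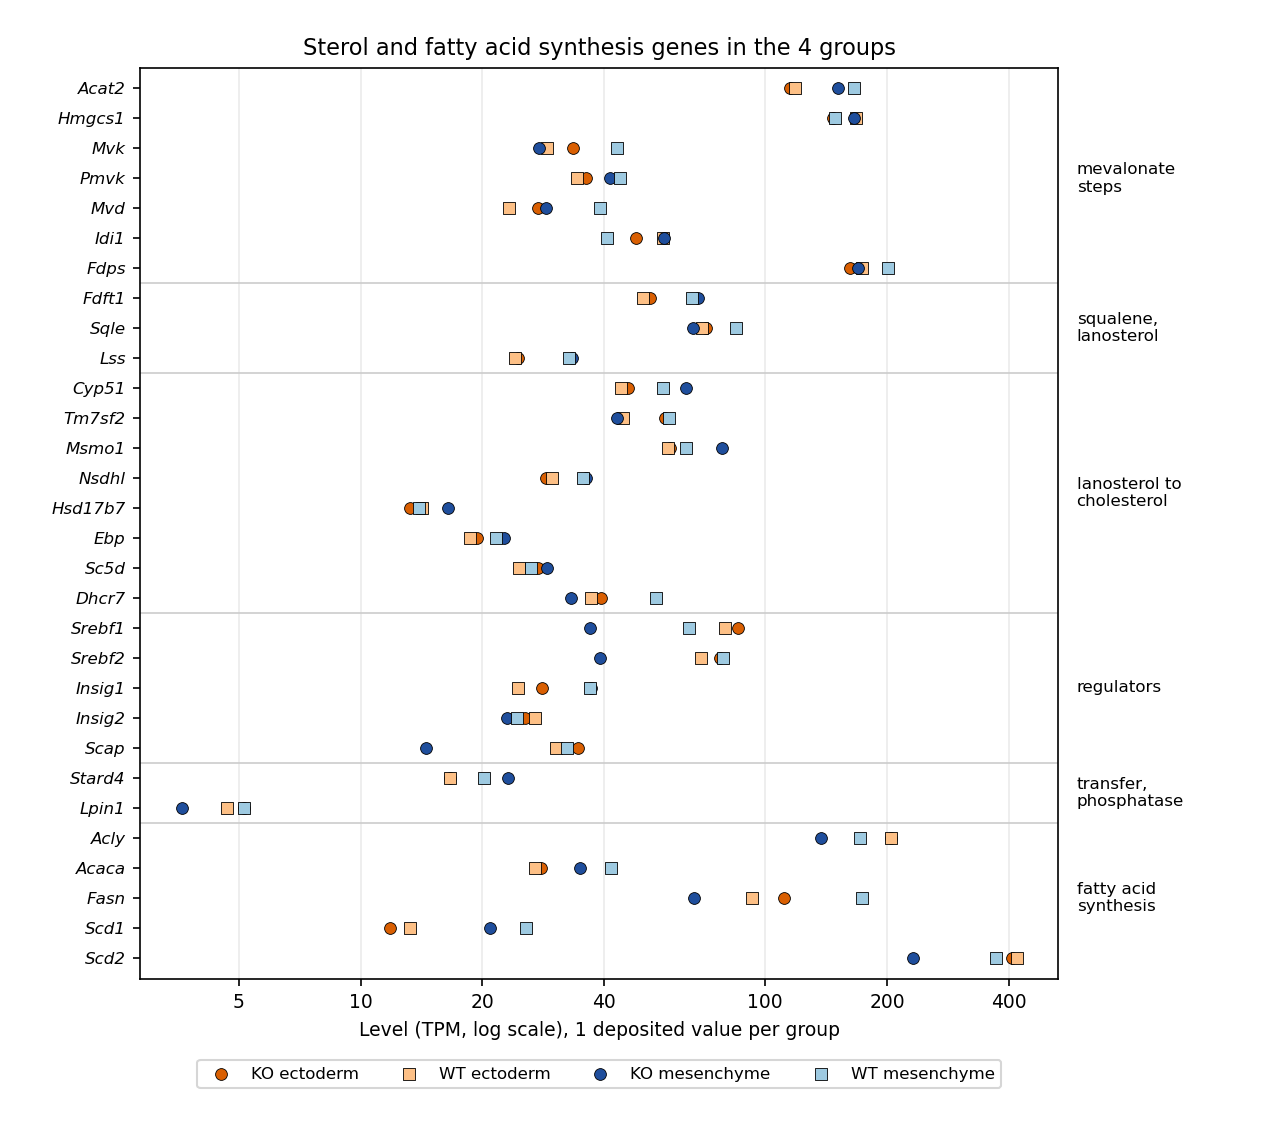
Level of each member in TPM (horizontal log axis, 1 deposited value per group) in KO ectoderm, WT ectoderm, KO mesenchyme and WT mesenchyme, grouped by role. The KO mesenchyme points of Fasn (66.6 TPM), Scap (14.5 TPM), Srebf1 (36.9 TPM) and Srebf2 (39.1 TPM) lie left of the other 3 groups of their rows.

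In KO mesenchyme 3 of 5 regulators (Scap, Srebf2 and Srebf1) and Fasn were 1.5-fold lower than in WT mesenchyme, beside 13.4% of all genes. Of the 18 sterol enzymes 2 were lower and 0 higher, close to that share of all genes. With the trend of the ratio with transcript GC content subtracted, Fasn (-0.85) was the 1 member still 1.5-fold lower, and 0 of 5 regulators were. At 1.5-fold or more, 7 of 30 members (23.3%) were lower and 0 higher, beside 13.4% of 14233 genes lower and 2.33% higher, on the scale of log2 of TPM + 1. The 7 were Fasn, Scap, Srebf2, Srebf1, Dhcr7, Scd2 and Mvk. At 2-fold, 2 members were lower (Fasn and Scap), beside 1.83% of genes. The median log2 ratio was -0.19 over the members and -0.12 over all genes tested. Relative to that median of all genes, Fasn, Scap, Srebf2 and Srebf1 were still 1.5-fold lower and Idi1 was 1.5-fold higher. The share of all genes past the fold after that centring was not counted.

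Among the regulators, Scap (GRCm38 chr9:110333288-110384950, plus strand) was at 14.5 TPM in KO mesenchyme and 32.4 TPM in WT mesenchyme, a log2 ratio of -1.11, and its exons share 985 bases with 5830462I19Rik on the opposite strand. Srebf2, whose protein acts mainly on sterol genes, was at 39.1 TPM in KO mesenchyme and 78.7 TPM in WT mesenchyme (-0.99). Srebf1, whose protein acts mainly on fatty acid genes, was at 36.9 TPM in KO mesenchyme and 64.9 TPM in WT mesenchyme (-0.80). With the GC trend subtracted these 3 lay within 1.5-fold, at -0.56 for Scap, -0.48 for Srebf2 and -0.27 for Srebf1, and Srebf1 was also within it under quantile normalization (-0.58). The genes of the retention proteins were level: Insig1 was at 37.1 TPM in KO mesenchyme and 36.9 TPM in WT mesenchyme, and Insig2 at 23.0 and 24.4 TPM. Srebf2 and Scap stayed in nearly the same proportion, with a ratio of 2.7 in KO mesenchyme and 2.43 in WT mesenchyme. The ratio of Insig1 to Insig2, 1.61 in KO mesenchyme and 1.52 in WT mesenchyme, was 1.11 in KO ectoderm and 0.907 in WT ectoderm.

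All 5 fatty acid enzymes were lower in KO mesenchyme, by unequal amounts, beside 63.4% of all 14233 genes with a ratio below 0. Fasn (GRCm38 chr11:120805846-120824547, minus strand), the multienzyme that makes palmitate, was at 66.6 TPM in KO mesenchyme and 173 TPM in WT mesenchyme, 38.5% of WT (log2 ratio -1.36); 0.204% of the genes tested had a lower ratio. Acaca, which makes the malonyl-CoA that Fasn uses, was at 34.8 TPM in KO mesenchyme and 41.6 TPM in WT mesenchyme (-0.25). The ratio of Fasn to Acaca within a column was accordingly 1.92 in KO mesenchyme and 4.16 in WT mesenchyme, beside 3.98 in KO ectoderm and 3.44 in WT ectoderm. Scd2 was at 232 TPM in KO mesenchyme and 372 TPM in WT mesenchyme (-0.68), and its paralog Scd1 at 20.9 and 25.6 TPM (-0.28). Acly, which splits citrate to acetyl-CoA, was at 138 TPM in KO mesenchyme and 171 TPM in WT mesenchyme (-0.31). Of these 5, only Fasn and Scd2 were 1.5-fold lower, beside 13.4% of all genes. Scd2 lay within 1.5-fold with centring (-0.56) and with the GC trend subtracted (-0.51).

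The mevalonate steps lay on both sides of WT in KO mesenchyme. Mvk, mevalonate kinase, was 1.5-fold lower at 27.6 TPM in KO mesenchyme and 43.1 TPM in WT mesenchyme (-0.62), a call that ends with a pseudocount of 5 TPM, with centring, with quantile normalization and with the GC trend subtracted. Mvd, the decarboxylase of the same branch, was at 28.7 TPM in KO mesenchyme and 39.0 TPM in WT mesenchyme (-0.43). Idi1, the isomerase that follows Mvd, had the highest ratio of all members, at 56.3 TPM in KO mesenchyme and 40.5 TPM in WT mesenchyme (0.46). Neither Mvd nor Idi1 was 1.5-fold apart. With the GC trend subtracted both were above 0, at 0.12 and 0.32, as were 6 of the 7 mevalonate steps, beside 55.1% of all genes. Hmgcs1, the synthase that opens the mevalonate branch, was at 166 TPM in KO mesenchyme and 149 TPM in WT mesenchyme (0.15). The kinase Pmvk (41.3 and 43.9 TPM), the thiolase Acat2 (151 and 166 TPM) and the farnesyl diphosphate synthase Fdps (170 and 201 TPM) had ratios of -0.08, -0.13 and -0.24.

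From squalene to cholesterol, 8 of 11 enzymes had ratios above 0 in KO mesenchyme, beside 36.5% of all genes, and the only 1 that was 1.5-fold apart was the last. Dhcr7, the reductase that completes cholesterol, was at 33.1 TPM in KO mesenchyme and 53.6 TPM in WT mesenchyme (-0.68). Dhcr7 lay within 1.5-fold with centring (-0.56), with quantile normalization (-0.47) and with the GC trend subtracted (-0.37). Sqle, squalene epoxidase, was at 66.4 TPM in KO mesenchyme and 84.8 TPM in WT mesenchyme (-0.35), and the sterol reductase Tm7sf2 at 43.1 and 57.9 TPM (-0.42). The other 8 ranged from 0.03 to 0.29. Highest was Msmo1, the methylsterol oxidase, at 78.2 TPM in KO mesenchyme and 63.6 TPM in WT mesenchyme, followed by the reductase Hsd17b7 (16.5 and 14.0 TPM) and the lanosterol demethylase Cyp51 (63.7 and 55.8 TPM). The desaturase Sc5d (28.9 and 26.3 TPM), the isomerase Ebp (22.6 and 21.6 TPM), squalene synthase Fdft1 (68.0 and 66.1 TPM), lanosterol synthase Lss (33.4 and 32.8 TPM) and the dehydrogenase Nsdhl (36.1 and 35.4 TPM) were nearly level. Stard4, a sterol carrier between membranes, was at 23.2 TPM in KO mesenchyme and 20.2 TPM in WT mesenchyme (0.19), and Lpin1 at 3.62 and 5.16 TPM (-0.42).

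**Figure D2:**
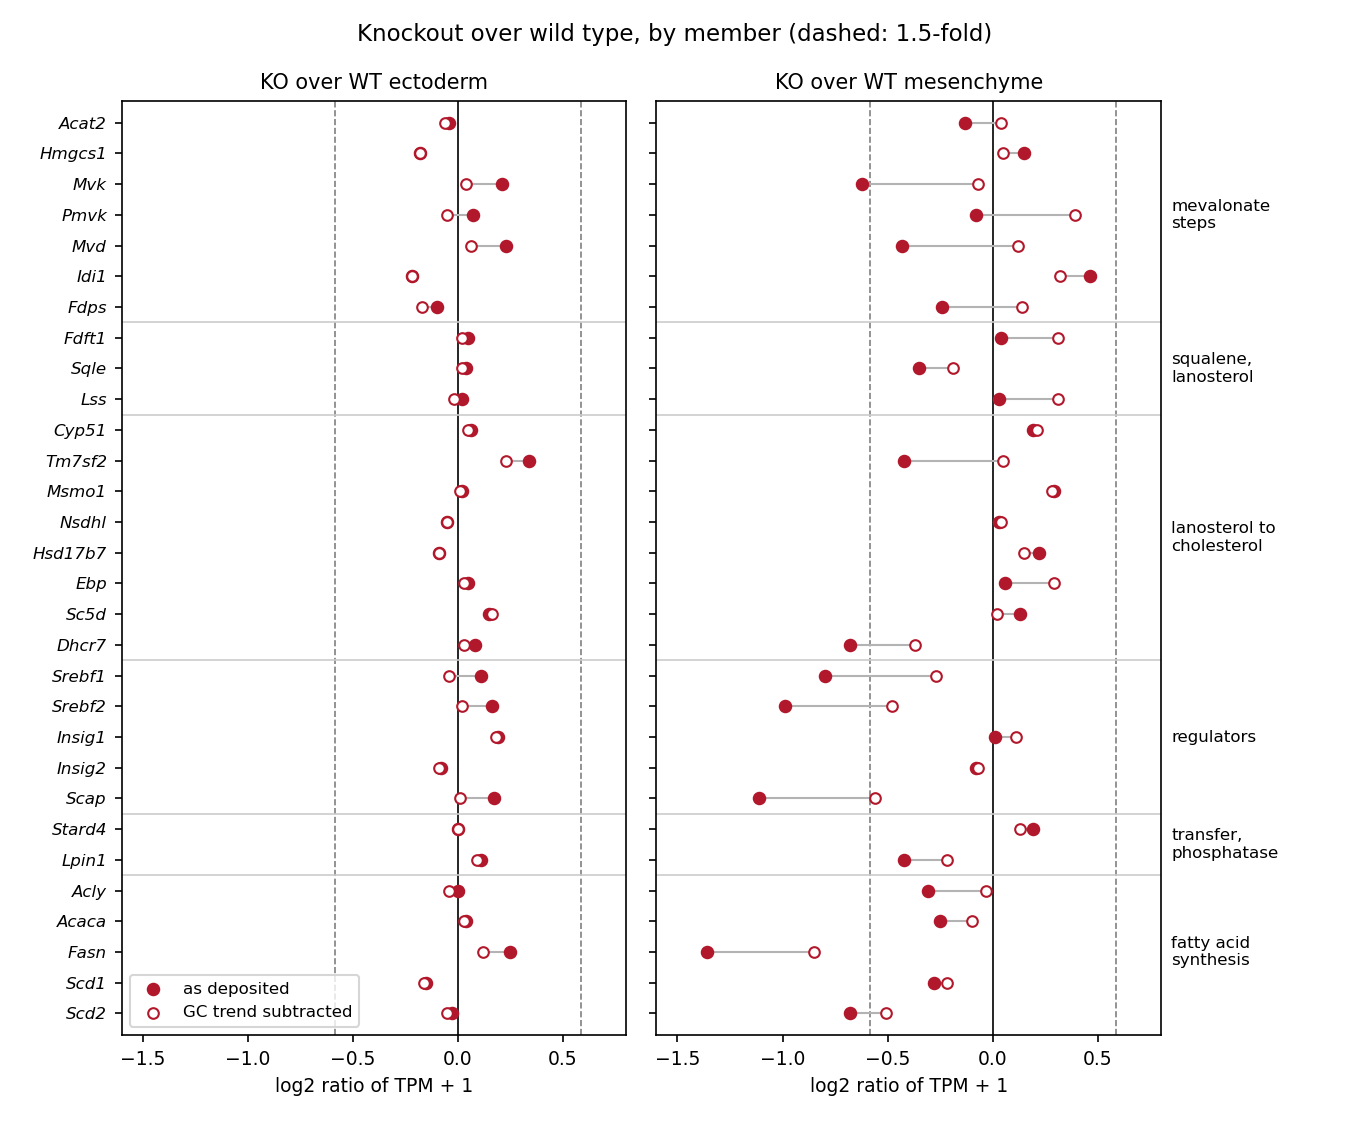
Log2 ratio of TPM + 1, KO over WT, of each member in ectoderm (left) and mesenchyme (right), as deposited (filled) and after subtraction of the trend with transcript GC content (open), with dashed lines at 1.5-fold. In mesenchyme the filled points run from -1.36 (Fasn) to 0.46 (Idi1), and the open points from -0.85 (Fasn) to 0.39 (Pmvk).

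The ratios in mesenchyme followed the base composition of the transcripts. Over the 10911 annotated genes that averaged 5 TPM or more, the median log2 ratio of KO to WT mesenchyme was 0.21 in the eighth with the lowest GC content (up to 42.4%) and -0.54 in the eighth with the highest (57.4% and above). Over the 30 members, whose longest coding transcripts span 41.9% to 59.6% GC, Spearman's rho between GC content and ratio was -0.80 and Pearson's r -0.78, beside -0.67 and -0.60 over all these genes; the points share the same pair of columns. The 15 members with the higher GC content had a median ratio of -0.42 with 6 at least 1.5-fold lower. The 15 with the lower GC content had a median of 0.03 with 1 lower, Scd2 at 49.5% GC. Of the 10911 genes, the eighths up to 49.9% GC had medians from 0.21 to -0.13, and those above from -0.23 to -0.54. Over all 14233 genes 13.4% were 1.5-fold lower, a share not counted by GC content. Fasn, Srebf2, Srebf1, Scap and Mvk all lie between 57.9% and 59.6% GC.

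With the GC trend of all genes subtracted, 1 of 30 members was 1.5-fold lower in KO mesenchyme, Fasn at -0.85, beside 2.11% of 14118 genes lower and 4.68% higher. Scap (-0.56), Scd2 (-0.51), Srebf2 (-0.48) and Dhcr7 (-0.37) then lay within 1.5-fold, and Srebf1 was at -0.27. Mvk was at -0.07, so its difference was that of transcripts of like GC content. The median of the members was 0.04, beside 0.03 over all genes. Of the 18 sterol enzymes 15 were then above 0, with a median of 0.13, beside 55.1% of all genes. All 5 fatty acid enzymes were below 0, with a median of -0.22, beside 44.9% of all genes. WT mesenchyme had no library with a pair of index barcodes and KO mesenchyme had 2 of 4, so genotype and kind of index cannot be told apart in these columns.

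**Figure D3:**
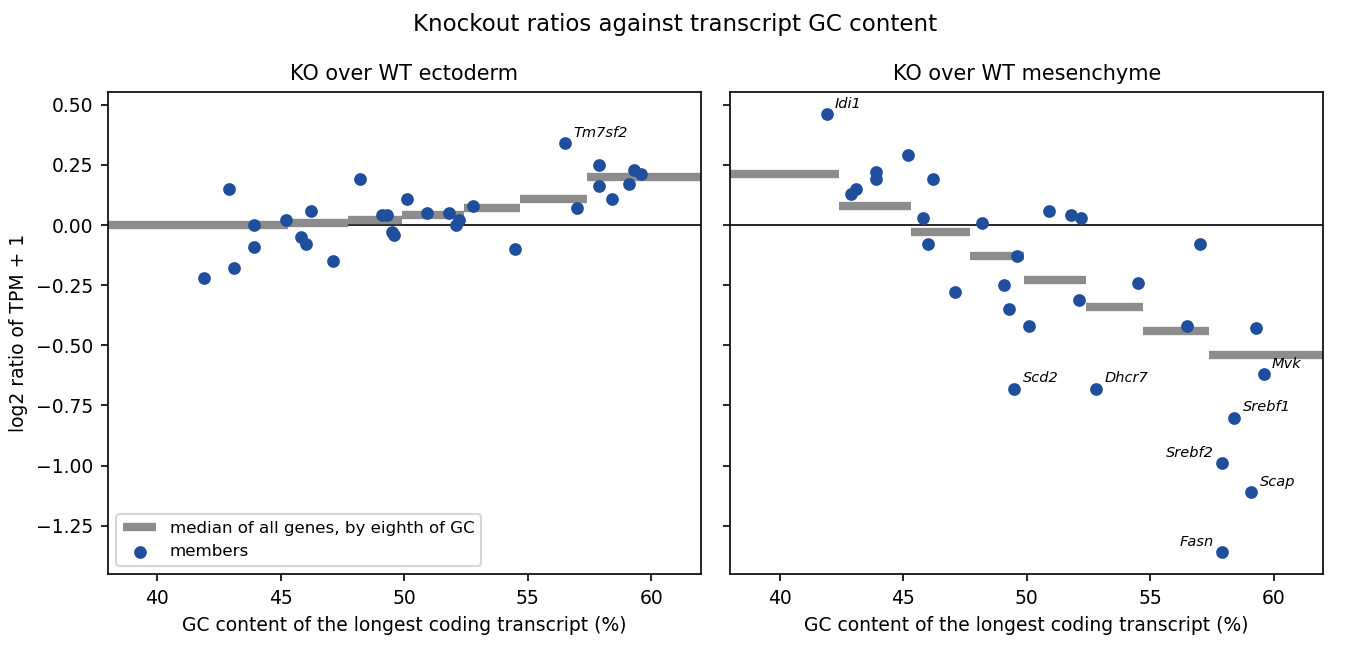
Log2 ratio of TPM + 1, KO over WT, against the GC content in percent of the longest coding transcript, for the 30 members (points) and as medians of all genes by eighth of GC content (grey bars), in ectoderm (left) and mesenchyme (right). In mesenchyme the bars fall from 0.21 to -0.54 along the axis, and Fasn, Scap, Srebf2, Srebf1, Dhcr7 and Scd2 lie below the bar of their GC content.

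In KO ectoderm no member was 1.5-fold apart from WT ectoderm, beside 4.92% of 13935 genes higher and 0.452% lower. The median log2 ratio was 0.05 over the members and 0.05 over all genes, and the members ranged from -0.22 to 0.34. Tm7sf2 had the highest ratio, at 56.7 TPM in KO ectoderm and 44.6 TPM in WT ectoderm, and its exons share 532 bases with those of Vps51 on the same strand. Fasn was at 111 TPM in KO ectoderm and 92.9 TPM in WT ectoderm (0.25), and Mvd at 27.4 and 23.3 TPM (0.23). Idi1 had the lowest ratio, at 48.0 TPM in KO ectoderm and 56.0 TPM in WT ectoderm (-0.22), and Hmgcs1 was at 147 and 167 TPM (-0.18).

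The regulators were within 1.5-fold of WT in KO ectoderm. Srebf1 was at 85.6 TPM in KO ectoderm and 79.4 TPM in WT ectoderm, Srebf2 at 77.3 and 69.3 TPM, and Scap at 34.5 and 30.4 TPM. Insig1 was at 28.1 TPM in KO ectoderm and 24.5 TPM in WT ectoderm, and Insig2 at 25.4 and 27.0 TPM. The sterol enzymes not yet given had ratios in KO ectoderm from -0.10 (Fdps, 162 and 173 TPM) to 0.21 (Mvk, 33.5 and 28.9 TPM). In the early steps Acat2 was at 115 TPM in KO ectoderm and 119 TPM in WT ectoderm, Pmvk at 36.0 and 34.3 TPM, Fdft1 at 51.9 and 50.0 TPM, Sqle at 71.5 and 69.6 TPM, and Lss at 24.5 and 24.1 TPM. In the late steps Cyp51 was at 45.9 TPM in KO ectoderm and 44.1 TPM in WT ectoderm, Msmo1 at 58.2 and 57.6 TPM, Nsdhl at 28.7 and 29.7 TPM, and Hsd17b7 at 13.3 and 14.2 TPM. Ebp was at 19.4 TPM in KO ectoderm and 18.6 TPM in WT ectoderm, Sc5d at 27.5 and 24.7 TPM, and Dhcr7 at 39.2 and 37.0 TPM. These pairs were nearly level, as were Stard4 (16.6 TPM in both) and Lpin1 (5.14 TPM in KO ectoderm and 4.69 TPM in WT ectoderm). Acly was at 204 TPM in both ectoderm columns, Scd2 at 408 TPM in KO ectoderm and 418 TPM in WT ectoderm, Scd1 at 11.8 and 13.2 TPM and Acaca at 27.9 and 27.1 TPM. The gain of mesenchyme markers in KO ectoderm equalled a median 10.6% of their excess in WT mesenchyme over WT ectoderm (9 markers, 9.33% to 14.9%). With that share of the WT mesenchyme column subtracted, the median of the members was 0.01 and still 0 of 30 were 1.5-fold apart. The reference was WT mesenchyme, although the KO ectoderm came from KO embryos. In KO mesenchyme the 9 markers summed to 1379 TPM, beside 2243 TPM in WT mesenchyme. A share against KO mesenchyme was not computed.

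Set against each other, the KO ratio in ectoderm was at least 2-fold above that in mesenchyme for 3 of 30 members and 2-fold below for 0, beside 7.34% and 0.593% of 14329 genes. These were Fasn (a log2 difference of 1.62), Scap (1.28) and Srebf2 (1.14), followed by Srebf1 (0.91) and Mvk (0.83). Idi1 had the lowest difference, -0.68. At 1.5-fold, 9 members were above and 1 below, beside 22.9% and 2.35% of genes. With the GC trend subtracted, Fasn was at 0.97 and 0 of 30 members were past 2-fold, beside 2.24% of genes above and 1.2% below.

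Between the layers of WT tissue most sterol enzymes had lower levels in ectoderm than in mesenchyme, by less than 2-fold. Of the 18, 15 had log2 ratios of ectoderm over mesenchyme below 0, with a median of -0.31, beside 62.7% of all 14242 genes below 0 and a median of -0.15. With the GC trend subtracted 14 of 18 were below 0, with a median of -0.12, beside 51.1% of genes and a median of -0.01. No member was 2-fold apart, beside 6.88% of genes higher and 12.1% lower in ectoderm, and at 1.5-fold 4 were lower (Mvd, Acaca, Fasn and Scd1), beside 21.4% of genes. Scd1 had the lowest ratio at 13.2 TPM in WT ectoderm and 25.6 TPM in WT mesenchyme (-0.90), while Scd2 was at 418 TPM in WT ectoderm and 372 TPM in WT mesenchyme (0.17). Scd2 therefore exceeded Scd1 31.5-fold in WT ectoderm and 14.5-fold in WT mesenchyme. Fasn was at 92.9 TPM in WT ectoderm and 173 TPM in WT mesenchyme (-0.89), whereas Acly, which supplies its substrate pathway, was at 204 and 171 TPM (0.26). Mvd (-0.72), Acaca (-0.60), Insig1 (-0.57) and Mvk (-0.56) followed among those lower in ectoderm, and Idi1 had the highest ratio (0.46).

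In KO tissue 14 of the 18 sterol enzymes had ratios below 0, beside 49.9% of all 14411 genes. Their median was -0.20, beside 0.00 over all genes, from columns that the KO comparisons also use. The median with the GC trend subtracted was -0.26, beside -0.03 over all genes. Srebf1, at 85.6 TPM in KO ectoderm and 36.9 TPM in KO mesenchyme, and Scap, at 34.5 and 14.5 TPM, were the 2 members at least 2-fold apart, each with a log2 ratio of 1.19. Beside them stood 9.06% of genes higher and 6.88% lower in KO ectoderm. Srebf2 was at 77.3 TPM in KO ectoderm and 39.1 TPM in KO mesenchyme (0.96). Fasn, whose WT layer ratio was negative, was at 111 TPM in KO ectoderm and 66.6 TPM in KO mesenchyme (0.73). At 1.5-fold, 5 members were higher and 1 lower, beside 17.6% and 13.4% of genes. With the GC trend subtracted, Srebf1 was at 0.83, Scap at 0.81 and Fasn at 0.39, and 0 members were 2-fold apart, beside 7.42% of genes higher and 7.6% lower.

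**Figure D4:**
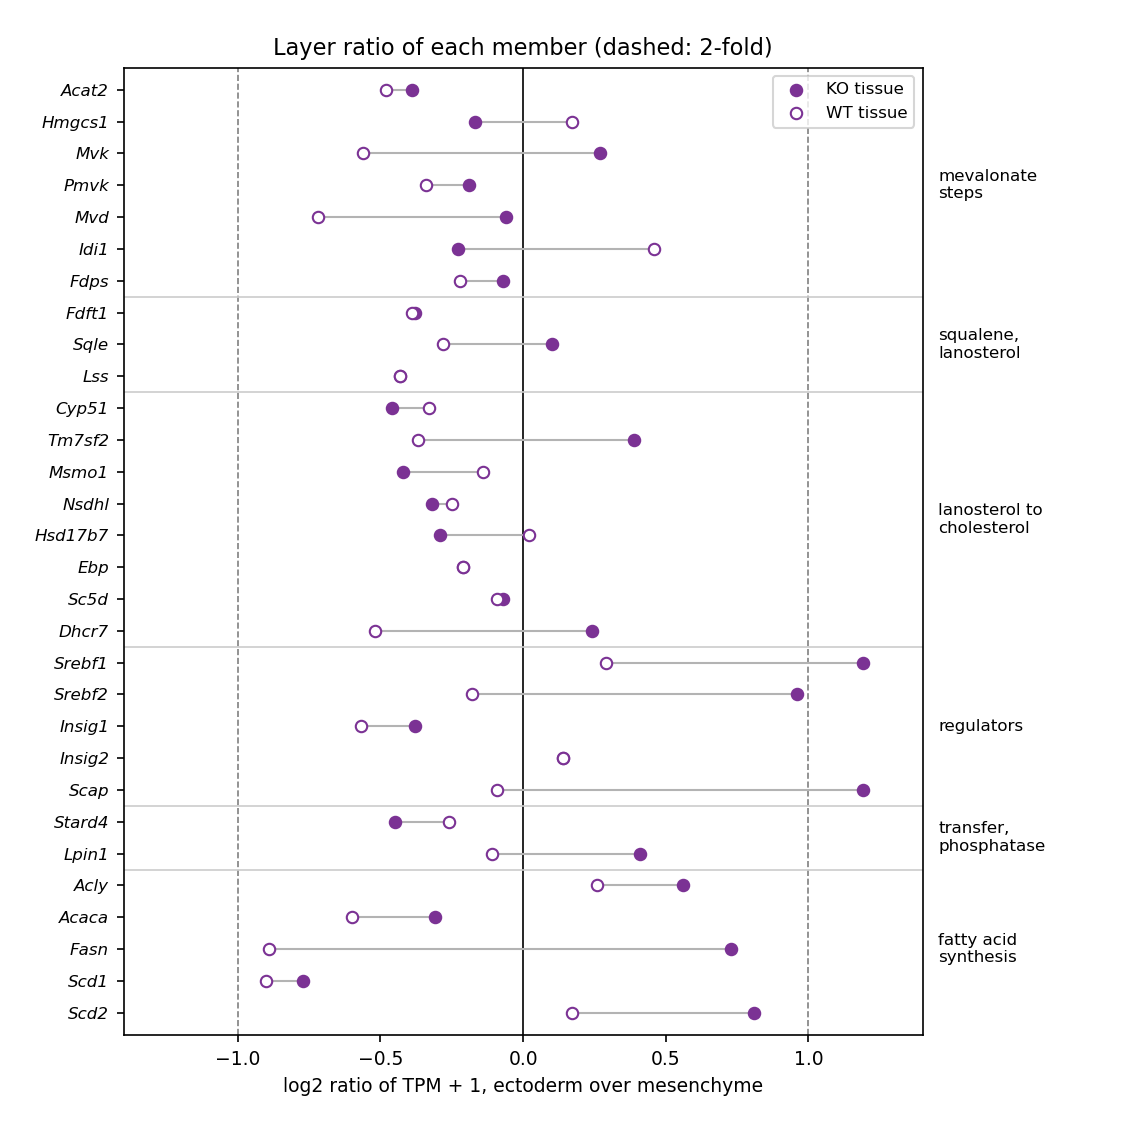
Log2 ratio of TPM + 1, ectoderm over mesenchyme, of each member in KO tissue (filled) and WT tissue (open), with dashed lines at 2-fold. Fasn lies at 0.73 in KO tissue and -0.89 in WT tissue, and Srebf1 and Scap, both at 1.19 in KO tissue, are the filled points past 2-fold.

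Of 10 genes for SREBP cleavage and sterol-dependent degradation, 2 were 1.5-fold lower in KO mesenchyme and 0 higher, with a median of -0.31, beside 13.4% and 2.33% of all genes and a median of -0.12; 0 of 10 were past 1.5-fold with the GC trend subtracted. Mbtps1, the first protease that cuts SREBPs, was at 71.7 TPM in KO mesenchyme and 123 TPM in WT mesenchyme (-0.77, and -0.48 with the GC trend subtracted). Syvn1, a ubiquitin ligase of the endoplasmic reticulum, was at 20.3 TPM in KO mesenchyme and 40.2 TPM in WT mesenchyme (-0.95, and -0.46). Mbtps2, which makes the second cut, was at 24.7 TPM in KO mesenchyme and 21.9 TPM in WT mesenchyme (0.17). None of the 10 was 1.5-fold apart in KO ectoderm, where the median was -0.01, and the KO effect of Syvn1 was 1.10 above that in mesenchyme. The difference for Syvn1 was 0.48 with the GC trend subtracted, within 2-fold, and 7.34% of all genes were 2-fold above as deposited.

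Of 23 measured genes of fatty acid supply, elongation and desaturation, 2 were 1.5-fold lower in KO mesenchyme and 0 higher, with a median of -0.17, a smaller share than the 13.4% of all genes that were lower (median -0.12). Fads1, a desaturase of polyunsaturated fatty acids, was at 58.5 TPM in KO mesenchyme and 103 TPM in WT mesenchyme (-0.81, and -0.53 with the GC trend subtracted). Slc25a1, the carrier that brings citrate out of mitochondria, was at 36.3 TPM in KO mesenchyme and 61.4 TPM in WT mesenchyme (-0.74, and -0.20). None of 24 was 1.5-fold apart in KO ectoderm (median 0.02), and 1, Mid1ip1, had KO effects 2-fold apart between the layers (1.03, and 0.48 with the GC trend subtracted), beside 7.34% of all genes. Between WT layers 2 of 24 were 2-fold higher in ectoderm, Acsl5, an acyl-CoA synthetase (42.3 and 13.3 TPM), and Elovl7, an elongase (3.9 and 0.7 TPM). Lower in WT ectoderm by 2-fold were 4, among them Fads3 (0.94 and 5.73 TPM) and Hacd1 (6.05 and 20.6 TPM). Beside these 2 and 4 of 24 stood 6.88% of all genes higher and 12.1% lower, and with the GC trend subtracted 2 were higher and 2 lower. Acsl5 kept its layer ratio in KO tissue, at 37.5 TPM in KO ectoderm and 11.7 TPM in KO mesenchyme (1.60 in both).

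The hedgehog ligand Shh was at 20.5 TPM in KO ectoderm and 34.0 TPM in WT ectoderm. It was at 0.44 TPM in KO mesenchyme and 0.2 TPM in WT mesenchyme. The ectoderm ratio of Shh was -0.71, beside 0.452% of all genes 1.5-fold lower. The 6 surface ectoderm markers summed to 1629 TPM in KO ectoderm and 2142 TPM in WT ectoderm. The hedgehog transcription factor Gli1 was at 38.3 TPM in KO mesenchyme and 72.3 TPM in WT mesenchyme (-0.90). Gli2, another, was at 17.2 and 41.2 TPM (-1.21). Beside them 13.4% of all genes were 1.5-fold lower in KO mesenchyme. With the GC trend subtracted Gli1 and Gli2 were at -0.35 and -0.71, beside 2.11% of genes 1.5-fold lower. In KO and WT ectoderm Gli1 was at 44.3 and 52.6 TPM (-0.24) and Gli2 at 24.7 and 23.1 TPM (0.09).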

How the data were processed

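RNA was measured in 4 libraries each of KO and WT facial ectoderm and mesenchyme. The authors deposited TPM, 1 value per gene symbol and group; per the submitters' processing notes the tools were STAR 2.5.2a and kallisto 0.43.0, and the build mm10. The sources used here do not give which of them made the values, how libraries were combined or whether strand was used; depth is unknown. Values per library were not analysed, so neither limma nor any other test was run.

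Of 30391 rows, 103 symbols had several, of which the most abundant was used; no member was among them. Log2 ratios were taken of TPM + 1 for genes averaging 1 TPM or more in the groups compared. Calls were set at 1.5-fold between genotypes and 2-fold between layers and between KO effects. Length and GC content of the longest coding transcript came from GENCODE M21 (GRCm38, the assembly also called mm10), matching 29994 symbols. Trends with GC, and then log2 length, were fitted by lowess (fraction 0.3, statsmodels 0.14.6) on genes averaging 5 TPM or more, then subtracted. The GC step was run on data simulated with a straight GC trend and no noise, which cannot check the trend of the real columns. The mesenchyme share was the median, over 9 markers at least 5-fold higher in WT mesenchyme, of the KO ectoderm gain in percent of the layer difference. Exons of 11 listed pairs overlap another gene, among them Fdps with Gm43738, Fdft1 with Ctsb and Tm7sf2 with Vps51, so these values are uncertain. All members were named; of the other lists, up to 4 genes past the fold in a comparison. Members and lists were chosen with earlier results of these data known.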

Additional observations from a re-analysis of the deposited data

Results flagged for a closer look

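3 members had KO effects of opposite sign in the layers that lay at least 2-fold apart, ectoderm effect minus mesenchyme effect on the log2 scale. The difference was 1.62 for Fasn, 1.28 for Scap and 1.14 for Srebf2. Beside these 3 of 30 members, 7.34% of 14329 genes were 2-fold above. Of the 30, 0 were past 2-fold with the GC trend subtracted, and the differences were 0.97 for Fasn, 0.57 for Scap and 0.50 for Srebf2; the ectoderm ratios of Scap and Srebf2 were then 0.01 and 0.02. With 1 value per group these differences were not tested.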

How the results depend on the processing

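No paired analysis was possible because the table holds 1 value per group, and for the same reason no replicate could be left out. Counts are of 30 members. In KO against WT mesenchyme, 7 members were 1.5-fold lower and 0 higher, beside 13.4% and 2.33% of all genes. Centring on the median of all genes and quantile normalization each gave 4 lower and 1 higher, with the share of all genes not counted. Subtracting the GC trend, or GC and length trends, gave 1 lower. After the GC trend alone, 2.11% of all genes were lower. At 2-fold, 2 members were lower as deposited, beside 1.83% of genes. In WT ectoderm against WT mesenchyme, 0 were 2-fold lower and 4 at 1.5-fold, beside 12.1% and 21.4% of genes. In KO ectoderm against KO mesenchyme, 2 were 2-fold higher, beside 9.06% of genes. Either GC setting gave 0, beside 7.42% of genes after the GC trend alone. At 1.5-fold 5 were higher and 1 lower, beside 17.6% and 13.4% of genes. For the ectoderm effect minus the mesenchyme effect, 3 were 2-fold higher, beside 7.34% of genes. Either GC setting gave 0, beside 2.24% of genes after the GC trend alone. At 1.5-fold 9 were higher and 1 lower, beside 22.9% and 2.35% of genes. The cause of the changes with GC content was not tested. The other 100 counts kept within 1.5 times, and among single members 36 values left the fold, 17 entered it and none that was past the fold changed sign. For KO against WT mesenchyme the median of the members ran from -0.20 to 0.04 over the settings. Depth behind the values is unknown.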

Other observations

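Genes of fatty acid oxidation, of the isoprenoid branches and of sterol handling were listed beside those of synthesis. Of 13 measured oxidation genes, 0 were 1.5-fold apart in either KO comparison, beside 4.92% of all genes higher and 0.452% lower in KO ectoderm and 2.33% higher and 13.4% lower in KO mesenchyme. Their median log2 ratio was 0.05 in KO against WT ectoderm and -0.28 in KO against WT mesenchyme, and 0.00 in mesenchyme with the GC trend subtracted. Cpt1a, which admits fatty acids to mitochondria, was at 13.3 TPM in KO ectoderm and 8.62 TPM in WT ectoderm (0.58), and at 8.36 TPM in KO mesenchyme and 12.3 TPM in WT mesenchyme (-0.51). Cpt1c, a relative known from the brain, was at 13.6 and 8.8 TPM in KO and WT ectoderm and at 19.1 and 27.5 TPM in KO and WT mesenchyme. In KO ectoderm Cpt1a and Cpt1c were at 155% and 154% of WT as deposited, and the pseudocount of 1 TPM placed these ratios within 1.5-fold. With the GC trend subtracted they were 0.54 and 0.44. With the mesenchyme share subtracted, KO ectoderm was at 13.5 and 11.9 TPM, beside 8.62 and 8.8 TPM in WT ectoderm. Cpt1a and Cpt1c were the 2 oxidation genes whose KO effects lay 2-fold apart between the layers (1.08 and 1.07), beside 7.34% of all genes. With the GC trend subtracted neither difference was 2-fold (0.80 and 0.44). Cpt1c was the 1 of 13 that was 2-fold lower in WT ectoderm than in WT mesenchyme (-1.54), beside 12.1% of all genes. Of 8 genes of the isoprenoid branches 0 were 1.5-fold apart in either KO comparison, beside the same shares of all genes, with medians of -0.01 in ectoderm and -0.26 in mesenchyme (-0.06 and -0.09 with the GC trend subtracted).

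Some sterol handling genes were 2-fold apart between layers. Of 13 measured in WT tissue 3 were 2-fold lower in ectoderm, beside 12.1% of all genes: Lima1, at 34.8 TPM in WT ectoderm and 113 TPM in WT mesenchyme, Gramd1b, a sterol carrier (2.64 and 10.6 TPM), and Mylip, a ubiquitin ligase induced by liver X receptors (8.85 and 27.8 TPM). Abcg1, a sterol exporter, had the opposite direction, at 12.6 TPM in KO ectoderm and 3.53 TPM in KO mesenchyme (1.59), and at 9.21 TPM in WT ectoderm and 5.83 TPM in WT mesenchyme (0.58). In KO against WT mesenchyme 2 of 14 were 1.5-fold lower, near the share over all genes (13.4%): Osbp, an oxysterol binding protein (21.5 and 34.2 TPM, -0.65), and Abcg1 (-0.59). Both were within 1.5-fold with the GC trend subtracted, at -0.45 and -0.29.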
